A study of Mus musculus with 16 samples.

Results

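The Hox genes were taken as every protein-coding row of the deposited count table whose symbol is Hoxa, Hoxb, Hoxc or Hoxd followed by a number. This gave 39 genes of 46320 in the table, 11 in cluster A, 10 in cluster B, 9 in cluster C and 9 in cluster D. RNA was sequenced from the somatodendritic and the axonal compartment of cultured mouse motoneurons of +/+ and Hnrnpr-/- mice, with 4 libraries in each of the 4 groups and 16 in all. Hnrnpr-/- mice carry a CRISPR/Cas9 deletion in Hnrnpr, the gene of the RNA-binding protein hnRNP R, and were backcrossed to C57Bl/6. Motoneurons of both genotypes came from lumbar spinal cords at embryonic day 13, were enriched by panning with an antibody against the neurotrophin receptor p75NTR, and were grown in microfluidic chambers whose channels let axons into a compartment apart from cell bodies and dendrites. CNTF at 5 ng/ml was present in both compartments and BDNF at 20 ng/ml was added to the axonal one, in every group. The labels give no sex and do not say how many embryos went into a culture. The libraries of a group are described as biological replicates in the study.

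Hox genes code for homeodomain transcription factors that stand in 4 clusters, in which the number of a gene is that of its paralogue group. Genes with low numbers, at the 3′ end of a cluster, are switched on early and reach far forward into the hindbrain, whereas genes with high numbers, at the 5′ end, are switched on late and stay at the tail end of the embryo. In the spinal cord the set of Hox proteins in a motoneuron fixes its column and the muscle that it supplies: the groups around Hoxc6 and Hoxc8 belong to forelimb levels, Hoxc9 to the thorax and Hox10 genes to the hindlimb levels.

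Total counts per library ranged from 22024923 to 34864151, and Hox genes took 0.0411% to 0.0731% of them. Between 29 and 37 of the 39 genes had more than 3 counts in a library, and where a gene had none, a level of up to 3 counts is possible from counting error alone, which is 0.0811 to 0.141 CPM, the count scaled to a common library size. Hnrnpr was at 178 to 241 CPM in +/+ somatodendritic and 120 to 422 CPM in +/+ axonal libraries, against 0.545 to 1.16 and 0.597 to 1.10 CPM in the Hnrnpr-/- ones, so that every library matched its genotype label. The motoneuron label was checked against 8 marker genes. Slc18a3, the vesicular acetylcholine transporter, was at 3.90 to 11.6 CPM and Isl1 at 3.89 to 8.03 CPM in +/+ somatodendritic libraries. Chat, the enzyme that makes acetylcholine, was at 0.657 to 1.31 CPM there, and Mnx1, a defining motoneuron factor, had no count in any library other than Hnrnpr-/- axonal ones, which held at most 2. The sensory neuron factor Pou4f1 was at 10.8 to 17.4 CPM in the same libraries. In such bulk RNA, fewer cells of a type and less RNA per cell cannot be told apart.

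The Hox genes present in these cultures were read from +/+ somatodendritic libraries as RPKM, the CPM per kilobase of exon, the scale used here to compare genes. The length is that of all exons of a gene together, which lowers genes with long rows, such as Hoxa3 and Hoxb3, against the others. This RNA also held transcripts of other cells: markers of motoneurons summed to 17.8 to 35.3 CPM there and those of astrocytes and radial glia to 971 to 1350 CPM. Those of oligodendroglia and Schwann cells summed to 181 to 797 CPM and those of fibroblasts and limb mesenchyme to 128 to 542 CPM. Pdgfra, at 46.6 to 155 CPM, is in both of these lists, and the limb mesenchyme gene Prrx1 was at 0.900 to 1.33 CPM. The cell type behind a Hox level thus cannot be told apart. Libraries were scaled by TMM factors, and values below stand in the order of replicates 1 to 4. Of the 39 genes, 21 had a mean of at least 1 RPKM. They were 2 of 12 genes in paralogue groups 1 to 4, 10 of 11 in groups 5 to 8, 7 of 7 in groups 9 and 10 and 2 of 9 in groups 11 to 13. The numbers were 22, 22 and 21 of 39 in +/+ axonal, Hnrnpr-/- somatodendritic and Hnrnpr-/- axonal libraries. The 18 genes under 1 RPKM in +/+ somatodendritic libraries were thus 10 of the anterior groups 1 to 4, 7 of the posterior groups 11 to 13, and Hoxc5.

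Genes of groups 9 and 10 held 52.3 ± 1.92% (SD, n = 4) of all Hox RPKM in +/+ somatodendritic libraries. Hoxb9, a gene of thoracic and lumbar levels, had the highest mean, with 30.4, 34.9, 29.8 and 47.1 RPKM. Hoxd10, which is required for lumbar motor columns, stood at 30.3, 32.5, 32.4 and 31.5 RPKM. Hoxc10, its paralogue in cluster C, stood at 33.7, 26.3, 29.7 and 25.4 RPKM. These 3 overlapped in their libraries, so their order is not resolved. Hoxb7 had 21.5, 26, 24 and 32.8 RPKM. Hoxc8, which directs motor pools at forelimb levels, had 17.2, 18.6, 25.4 and 30.4 RPKM. Each of these 5 leading genes overlapped with its neighbours in the order.

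The next 5 genes were lower than Hoxd10 and Hoxc10 in every +/+ somatodendritic library. Hoxa9 stood at 12, 11.6, 9.63 and 17 RPKM, Hoxb6 at 10.7, 12.5, 7.42 and 15.8 RPKM and Hoxa10, a hindlimb-level gene, at 9.45, 12.1, 13.6 and 8.78 RPKM. Hoxa7 had 11.9, 9.22, 8.99 and 13.8 RPKM and Hoxd9 had 10.1, 9.65, 9.82 and 7.51 RPKM. The libraries of these 5 genes overlapped. Below them by mean came Hoxa6 at 9.19 ± 0.94 RPKM (SD, n = 4), Hoxc9 at 6.95 ± 0.71 and Hoxa5 at 6.87 ± 0.709 RPKM. The order of Hoxa6 and Hoxd9, at 9.27 ± 1.19 RPKM, is not resolved. The forelimb-level gene Hoxc6 was at 3.05 ± 0.481 RPKM, below Hoxc8 and Hoxc10 in every library. Among the most anterior groups, Hoxb2 at 5.15 ± 0.37 and Hoxd3 at 3.41 ± 0.884 RPKM passed 1 RPKM, and the other 10 lay between 0.0331 RPKM (Hoxb1) and 0.952 RPKM (Hoxa2).

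**Figure D1:**
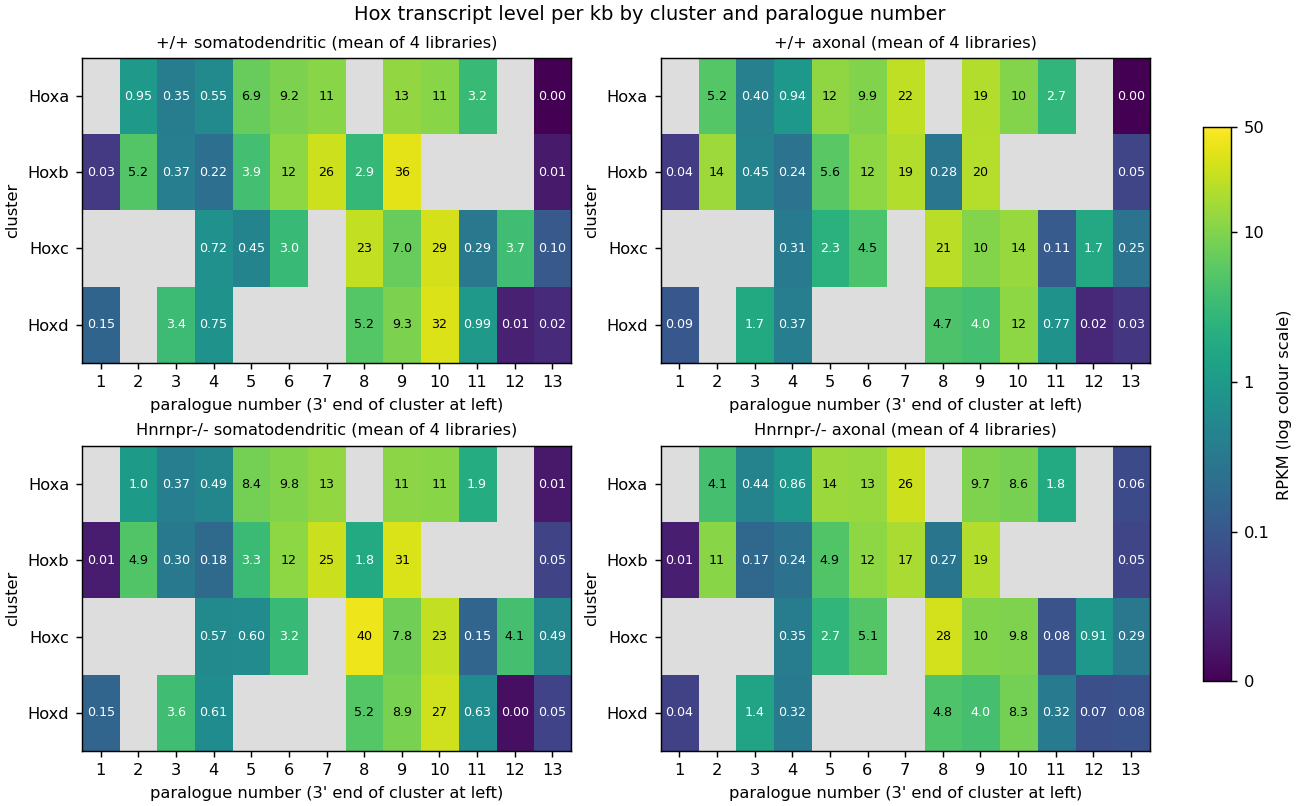
Mean level of 38 of the 39 Hox genes by cluster (rows) and paralogue number (columns) in each of the 4 groups, as mean RPKM of 4 libraries, printed in each box and shown on a log colour scale, with grey where no gene is shown. The highest level of every group lies at numbers 7 to 10, and numbers 12 and 13 are under 1 RPKM apart from Hoxc12.

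**Figure D2:**
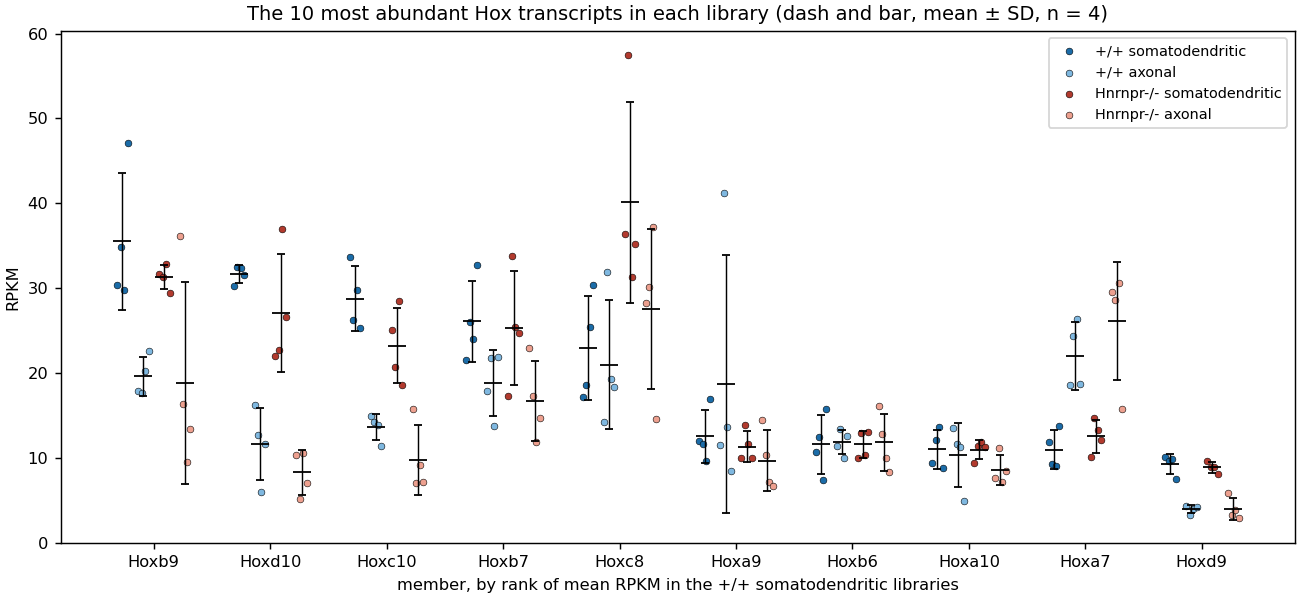
RPKM of the 10 Hox genes with the highest mean in +/+ somatodendritic libraries, with 1 point per library and a dash and bar for the mean and SD of 4 in each group. Hoxb9, Hoxd10 and Hoxc10 lead in +/+ somatodendritic libraries, with means of 35.5, 31.7 and 28.8 RPKM.

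At the 5′ end clusters A, B and D fell off between neighbouring genes, while cluster C was uneven. In cluster A the last gene above 1 RPKM was Hoxa11, at 3.01, 3.76, 4.31 and 1.85 RPKM in +/+ somatodendritic libraries. Its neighbour Hoxa13, a gene of the limb tips and the tail end, had 0 counts in all 8 +/+ libraries and 11 in all 16. In cluster B the drop lay between Hoxb9 and Hoxb13, which had 1 count over the 4 +/+ somatodendritic libraries, 23 in all 16 and no more than 8 in any library. Cluster D dropped from Hoxd10 to Hoxd11, which was at 0.903, 1.49, 1.32 and 0.245 RPKM. Part of the row of Hoxd11 overlaps that of Hoxd10 on the same strand, and a read in both was divided between them. In cluster C, Hoxc12 was at 6.93, 3.46, 3.7 and 0.781 RPKM, while the Hoxc11 row next to it was at 0.292 RPKM and Hoxc13 at 0.186, 0, 0.017 and 0.193 RPKM. The rows of Hoxa13, Hoxb13 and Hoxc11 end before parts of their 3′ UTRs in GENCODE. Reads there were not counted for these genes, so their levels may be too low.

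The promoters on both sides of the drop in clusters A and D are given here, since these neighbouring genes differ so widely in level. Each line holds the 250 bases before the start site from RefSeq (GRCm38.p6), read 5′ to 3′ on the strand of the gene, with CG dinucleotides in capitals.
Hoxa11 (chr6:52245811-52246060, minus strand): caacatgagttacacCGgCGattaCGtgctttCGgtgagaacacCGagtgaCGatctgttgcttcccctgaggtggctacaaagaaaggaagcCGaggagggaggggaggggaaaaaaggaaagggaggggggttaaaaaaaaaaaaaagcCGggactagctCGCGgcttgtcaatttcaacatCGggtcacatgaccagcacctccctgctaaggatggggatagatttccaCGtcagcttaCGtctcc
Hoxa13 (chr6:52260881-52261130, minus strand): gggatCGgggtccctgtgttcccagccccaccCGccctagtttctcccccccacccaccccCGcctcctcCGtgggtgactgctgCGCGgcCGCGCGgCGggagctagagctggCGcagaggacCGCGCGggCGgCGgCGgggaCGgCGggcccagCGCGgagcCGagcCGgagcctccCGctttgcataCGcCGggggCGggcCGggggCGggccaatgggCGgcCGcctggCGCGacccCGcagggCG
Hoxd10 (chr2:74691641-74691890, plus strand): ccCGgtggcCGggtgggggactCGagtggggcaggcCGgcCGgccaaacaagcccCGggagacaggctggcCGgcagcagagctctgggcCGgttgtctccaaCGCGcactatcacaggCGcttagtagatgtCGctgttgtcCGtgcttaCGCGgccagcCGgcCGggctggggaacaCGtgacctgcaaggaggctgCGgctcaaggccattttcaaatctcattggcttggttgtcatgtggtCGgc
Hoxd11, downstream of 2 starts (chr2:74682073-74682322, plus strand): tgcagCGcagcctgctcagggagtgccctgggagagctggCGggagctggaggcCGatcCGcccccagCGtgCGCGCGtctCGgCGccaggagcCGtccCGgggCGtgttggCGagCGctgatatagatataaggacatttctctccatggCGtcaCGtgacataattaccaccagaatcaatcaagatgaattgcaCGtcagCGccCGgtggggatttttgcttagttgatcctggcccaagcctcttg

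In the windows shown, CG dinucleotides were not sparse on the low side of the drop. The Hoxa13 window held 35 of them at a GC content of 80.0%, against 13 at 52.0% for Hoxa11. The Hoxd10 window held 20 and the downstream one of Hoxd11 also 20. The window of the upstream Hoxd11 start, not shown, held only 2 at a GC content of 44.8%. Over the 24 promoters of 22 Hox genes in the RefSeq table the median ratio of observed to expected CG was 0.721, against 0.373 over 32851 promoters of all genes. The hexamer TTTATG, the core that CDX factors bind, was found on either strand in 5 of the 24 (20.8%) and in 10.8% of all promoters. The 5 were those of Hoxa7, Hoxb8, Hoxd3, Hoxd4 and the upstream start of Hoxd11, and the Hoxd11 window shown holds no match. A match is a description of the letters in these windows.

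The 5′ genes also differed widely between the replicates of a group. The counts of Hoxa11 were 228, 191, 238 and 90 in +/+ somatodendritic and 242, 262, 261 and 26 in +/+ axonal libraries. In Hnrnpr-/- libraries they were 62, 12, 167 and 178 in the somatodendritic and 13, 34, 198 and 286 in the axonal compartment. The 3 lowest values of each compartment thus belonged to the same replicates, +/+ replicate 4 and Hnrnpr-/- replicates 1 and 2. Hoxd11 had 126, 139, 134 and 22 counts in +/+ somatodendritic and 136, 220, 62 and 11 in +/+ axonal libraries. It had 20, 3, 103 and 124 in Hnrnpr-/- somatodendritic and 9, 0, 56 and 104 in Hnrnpr-/- axonal libraries, and its 3 lowest values in each compartment came from the same 3 replicates.

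Hoxc12 counts were 221, 74, 86 and 16 in +/+ somatodendritic and 107, 65, 16 and 18 in +/+ axonal libraries. They were 25, 0, 27 and 316 in Hnrnpr-/- somatodendritic and 7, 0, 2 and 98 in Hnrnpr-/- axonal libraries, so that Hnrnpr-/- replicate 4 was highest and replicate 2 had none in both compartments. Hoxc13 was at 15, 0, 1 and 10 and 25, 13, 14 and 24 counts in the +/+ and 4, 0, 0 and 108 and 33, 1, 4 and 52 counts in the Hnrnpr-/- somatodendritic and axonal libraries. The long non-coding RNA Hoxa11os, transcribed against Hoxa11 and not separable from it in these libraries, had its 3 lowest values in each compartment in those 3 replicates as well, with 71, 46, 60 and 27 counts in +/+ somatodendritic and 18, 14, 50 and 68 in Hnrnpr-/- somatodendritic libraries. Hoxa10, one step towards the 3′ end, stayed between 27.6 and 42.8 CPM in the 8 somatodendritic and between 15.4 and 42.4 CPM in the 8 axonal libraries, lowest in +/+ replicate 4 in both. The labels do not say whether cords were cut at the same level in each preparation.

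**Figure D3:**
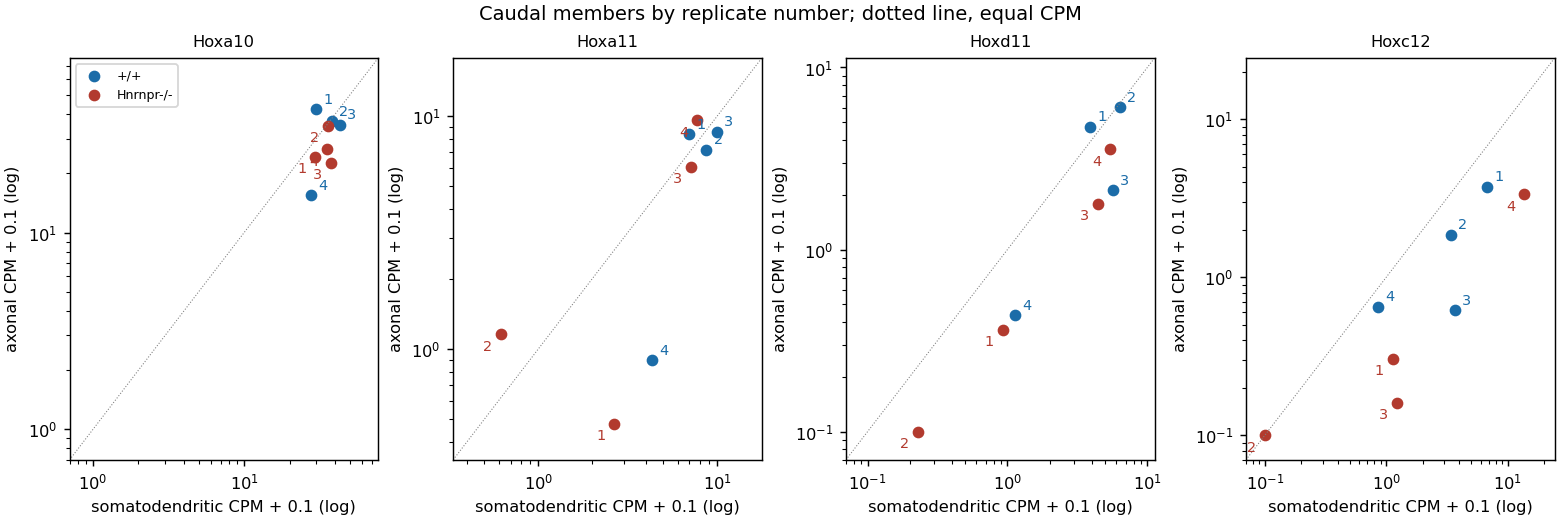
Somatodendritic (horizontal) against axonal (vertical) level of Hoxa10, Hoxa11, Hoxd11 and Hoxc12, as CPM + 0.1 on log axes, 1 point per replicate number and genotype, with the number printed beside it. For Hoxa11 and Hoxd11, +/+ replicate 4 and Hnrnpr-/- replicates 1 and 2 lie low on both axes, and for Hoxa10, +/+ replicate 4 is the lowest point on both axes, at 27.6 and 15.4 CPM.

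Which Hox transcripts differ between compartments was tested in edgeR across 19964 genes that passed a filter on low counts, 32 of them Hox genes. The 7 not tested were Hoxa13, Hoxb1, Hoxb13, Hoxc11, Hoxd1, Hoxd12 and Hoxd13, with 11 to 87 counts over all libraries. In +/+ motoneurons 14 of 32 passed an adjusted p of 0.05 between axonal and somatodendritic libraries, against 57.5% of all genes tested. Of these 6 were higher in axons, where 30.1% of all genes were, and 8 were lower, where 27.4% were. In Hnrnpr-/- motoneurons 14 of 32 passed, against 54.2% of all genes, 7 of them higher (27.5% of all genes) and 7 lower (26.8%). The shares of Hox genes that changed were thus not above those of all genes. Of the 32, 6 were higher and 6 lower in both genotypes, and 16 passed in neither. The median log2 fold change of Hox genes was 0.07 in +/+ and -0.18 in Hnrnpr-/- motoneurons, beside 0.07 and -0.003 over all genes. Without TMM factors the median of all genes shifted to 0.22 and 0.12, and the split of calls became 9 higher and 6 lower in both genotypes.

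The calls are described here by cluster and by position, without a test between them, and stand beside 30.1% higher and 27.4% lower of all genes in +/+ and 27.5% and 26.8% in Hnrnpr-/- motoneurons. With so few genes in each, many of these shares are close to those of all genes. In cluster A 4 of 10 tested genes were higher in axons and 0 lower, in either genotype, and in cluster D 0 of 6 were higher and 4 (+/+) or 3 (Hnrnpr-/-) lower. Cluster B had 1 higher and 2 lower of 8 in both genotypes, and cluster C 1 higher and 2 lower of 8 in +/+ and 2 and 2 in Hnrnpr-/- motoneurons. By number, 3 of 10 genes of groups 1 to 4 were higher and 3 lower in +/+ motoneurons, 3 of 11 higher and 1 lower in groups 5 to 8, and 0 of 7 higher and 4 lower in groups 9 and 10. The Hnrnpr-/- counts were 3 and 2, 4 and 2, and 0 and 3. None of the 4 tested genes of groups 11 to 13 passed in either genotype, where edgeR's unadjusted p was also never under 0.05, but Hoxd11 and Hoxc12 passed in Hnrnpr-/- motoneurons once libraries were paired by number.

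As shares of all Hox RPKM, groups 9 and 10 went from 52.3 ± 1.92% in +/+ somatodendritic to 37.8 ± 3.27% in +/+ axonal libraries (SD, n = 4), and from 46.1 ± 5.03% to 31.2 ± 4.87% in Hnrnpr-/- ones. Cluster A held 21.5 ± 0.197% and 35.5 ± 4.96% in +/+ and 21.8 ± 0.403% and 36.4 ± 3.32% in Hnrnpr-/- libraries. Cluster D held 19.9 ± 2.32% and 10.2 ± 2.16% in +/+ and 17.7 ± 2.75% and 8.94 ± 1.86% in Hnrnpr-/- libraries. None of these shares overlapped between the compartments of a genotype, and they are given as descriptions. The mean paralogue number weighted by RPKM was 8.01 to 8.29 in +/+ somatodendritic and 7.08 to 7.66 in +/+ axonal libraries, and 7.84 to 8.24 and 6.95 to 7.42 in the Hnrnpr-/- ones.

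**Figure D4:**
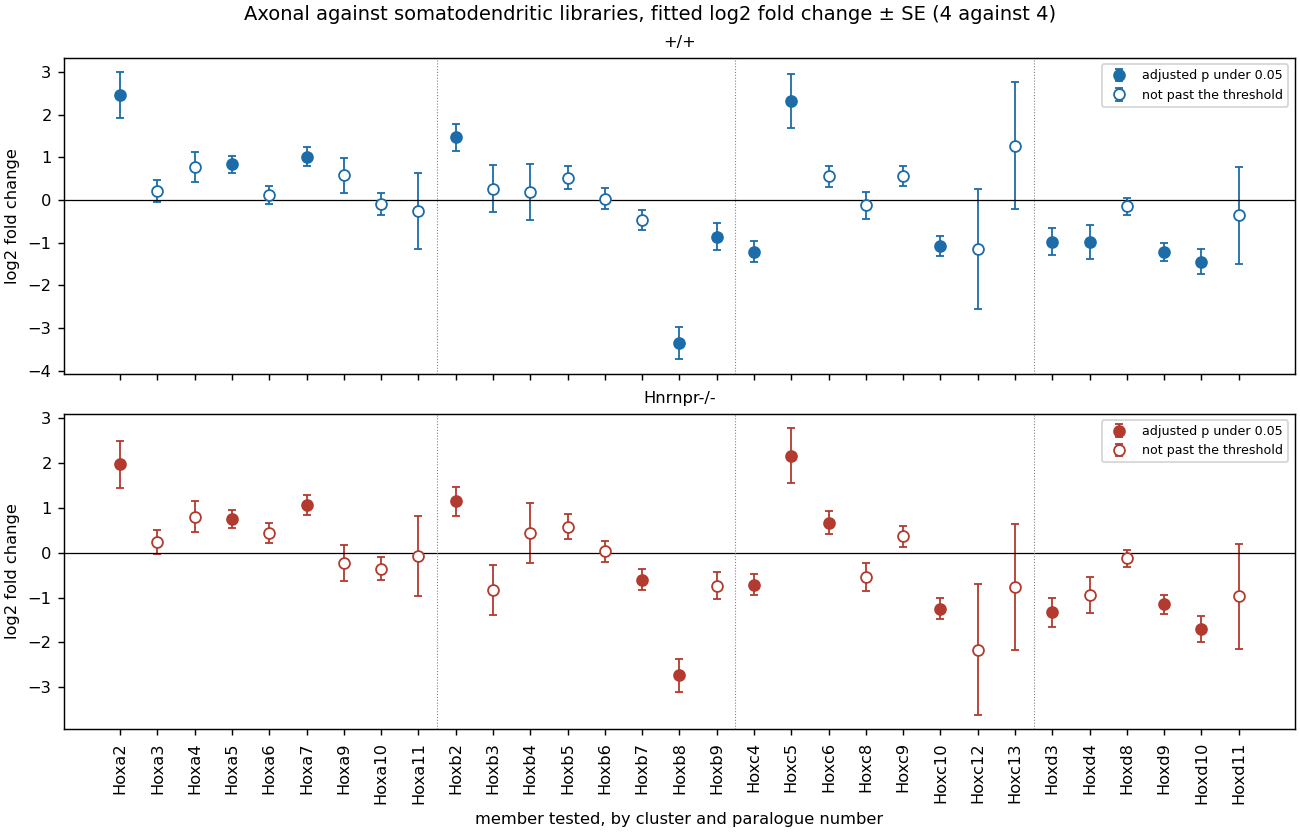
Fitted log2 fold change, axonal against somatodendritic, with its SE, for 31 of the 32 Hox genes tested in +/+ (upper) and Hnrnpr-/- (lower) motoneurons, by cluster and number, with filled points past an adjusted p of 0.05. Cluster A holds rises only and cluster D falls only among the filled points, and Hoxb8 is lowest, at -3.36 and -2.74.

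Marker genes of other cell types were counted in the same way, beside the same shares of all genes (30.1% higher and 27.4% lower in +/+, 27.5% and 26.8% in Hnrnpr-/- motoneurons), to which 2 of 6 and 3 of 9 higher are close. Astrocyte and radial glia markers were higher in axonal libraries for 4 of 6 genes in +/+ (Fabp7 by 2.10 and Sox9 by 1.35 on the log2 scale) and 2 of 6 in Hnrnpr-/- motoneurons, and their summed level went from 971 to 1350 up to 1962 to 4703 CPM in +/+ and from 903 to 2008 up to 1901 to 3758 CPM in Hnrnpr-/- libraries. Markers of fibroblasts and limb mesenchyme were higher for 3 of 9 in both genotypes, among them Prrx1 by 2.89 in +/+ motoneurons, with sums of 128 to 542 and 181 to 1955 CPM in the +/+ and 157 to 1331 and 455 to 2016 CPM in the Hnrnpr-/- somatodendritic and axonal libraries. Motoneuron markers were lower in axons for 3 of the 6 tested of 8 in each genotype, with sums of 17.8 to 35.3 and 4.35 to 16.7 CPM in +/+ and 21.9 to 29.9 and 3.39 to 12.9 CPM in Hnrnpr-/- libraries. Of the 6 sensory neuron markers, 5 were tested, of which 1 was higher and 2 lower in +/+ and 0 and 2 in Hnrnpr-/- axons. Of the 5 tested of 6 markers of oligodendroglia and Schwann cells, 1 was higher in each genotype, none of 5 microglial genes passed, and of 6 nuclear RNAs 3 were higher and 2 lower in +/+ and 1 and 2 in Hnrnpr-/- axons. No fibroblast or glial marker was at or under 3 counts in every axonal library of a genotype. The part of these cells in the Hox results was not tested. Somatodendritic and axonal samples were also amplified in different volumes and with different numbers of PCR cycles, so that compartment and library preparation cannot be told apart.

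Hoxb8 had the largest difference of all Hox genes between the compartments. Hoxb8 was at 8.99, 7.7, 3.06 and 14 CPM in +/+ somatodendritic and 0.749, 0.703, 0.877 and 0.948 CPM in +/+ axonal libraries. Hoxb8 stood at 5.06, 4.98, 5.74 and 5.45 CPM in Hnrnpr-/- somatodendritic and 0.697, 0.745, 0.63 and 1.09 CPM in Hnrnpr-/- axonal libraries. No axonal library reached the lowest somatodendritic one in either genotype. The fall was 10.2-fold in +/+ (log2 fold change -3.36, SE 0.38, adjusted p = 2.71e-05) and 6.68-fold in Hnrnpr-/- motoneurons (log2 fold change -2.74, SE 0.37, adjusted p = 8.14e-05). Its neighbours on chromosome 11 are Hoxb7 and Hoxb9, with log2 fold changes in +/+ motoneurons of -0.47 (adjusted p = 0.104) and -0.86 (adjusted p = 0.0264).

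Among all 39 Hox transcripts, that of Hoxb8 also stood apart in how closely its 3′ UTR pairs with a microRNA coded within the clusters. The Hox clusters hold genes of the miR-10 and miR-196 families, which are known to repress Hox mRNAs, and miR-196 is known to direct cleavage of the Hoxb8 mRNA. The mature 5p sequences are given from RefSeq (GRCm38.p6), with bases 2 to 8, the seed, in capitals, because the letters after the seed decide the pairing with Hoxb8.
miR-10a-5p: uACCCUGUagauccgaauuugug
miR-10b-5p: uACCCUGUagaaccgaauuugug
miR-196a-5p: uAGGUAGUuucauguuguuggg
miR-196b-5p: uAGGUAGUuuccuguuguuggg

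Both miR-10 genes share 1 seed, and the miR-196 genes share another. The site in Hoxb8 and the 2 seed matches of Hoxc8 are given from GENCODE transcripts (GRCm39), 5′ to 3′ on the sense strand, with the bases opposite the miR-196 seed in capitals.
Hoxb8 (chr11:96175714-96175735, plus strand): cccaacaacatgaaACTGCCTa
Hoxc8, upstream (chr15:102901408-102901429, plus strand): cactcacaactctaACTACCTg
Hoxc8, downstream (chr15:102902165-102902186, plus strand): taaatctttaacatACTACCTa

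All 22 bases of miR-196a-5p paired with the Hoxb8 site without a gap, 21 in Watson-Crick pairs and 1 as G:U. The G:U pair lies within the seed, so a search for the exact 7-base match ACTACCT does not find it. The best ungapped site of any other Hox transcript paired 19 of 22 bases. An exact match was present in 3′ UTRs of 9 of the 39 Hox genes and in 8.055% of 20955 genes, and the miR-10 match ACAGGGT in 4 of 39 Hox genes and 17.17% of all. Hoxa7 held 4 miR-196 matches, all past the 3′ end of its row in the deposited table. The 8 tested genes with an exact match had a median log2 fold change of 0.67 between +/+ axons and somatodendritic RNA, and the other 24 one of -0.12. Of the 8, 2 were below 0 in +/+ and 3 in Hnrnpr-/- motoneurons, among them Hoxb7. Reads on the microRNA genes summed to 51 over all 16 libraries for Mir196b, 21 for Mir10b, 12 for Mir196a-1, 9 for Mir196a-2, 1 for Mir10a and 0 for Mir615. Such libraries do not measure mature microRNAs, and a part of miR-196 in the Hoxb8 values was not tested.

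The other falls lay mostly in groups 9 and 10 and in cluster D. Hoxd10 was at 84.4, 90.6, 90.3 and 87.8 CPM in +/+ somatodendritic and 45.3, 35.5, 16.5 and 32.3 CPM in +/+ axonal libraries. Hoxd10 stood at 61.3, 63.3, 103 and 74 CPM in Hnrnpr-/- somatodendritic and 29, 14.5, 29.6 and 19.7 CPM in Hnrnpr-/- axonal libraries. The groups did not overlap, and Hoxd10 fell by 1.45 in +/+ (SE 0.29, adjusted p = 0.000773) and 1.70 in Hnrnpr-/- axons on the log2 scale (SE 0.29, adjusted p = 0.000322). Hoxc10 was at 64.5, 50.3, 56.9 and 48.5 CPM in +/+ somatodendritic and 28.5, 27.3, 26.4 and 21.9 CPM in +/+ axonal libraries. Hoxc10 stood at 48, 39.5, 54.5 and 35.7 CPM in Hnrnpr-/- somatodendritic and 30.1, 13.4, 17.6 and 13.7 CPM in Hnrnpr-/- axonal libraries. Hoxc10, like Hoxd10 a gene of hindlimb motor columns, decreased by 1.08 (SE 0.24, adjusted p = 0.00151) and 1.25 (SE 0.24, adjusted p = 0.000689), with no overlap of the compartments in either genotype. Hoxd9 was at 21.2, 20.3, 20.6 and 15.8 CPM in +/+ somatodendritic and 9.2, 6.81, 8.45 and 8.87 CPM in +/+ axonal libraries. Hoxd9 stood at 20.2, 18.7, 18.7 and 16.9 CPM in Hnrnpr-/- somatodendritic and 12.4, 6.83, 8.1 and 6.13 CPM in Hnrnpr-/- axonal libraries. For Hoxd9, which stands next to Hoxd10, log2 fold changes were -1.22 (SE 0.21, adjusted p = 0.000306) and -1.15 (SE 0.21, adjusted p = 0.000529), again without overlap.

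Hoxb9 differed in how far the genotypes' libraries spread. Hoxb9 was at 82, 94.2, 80.4 and 127 CPM in +/+ somatodendritic and 48.3, 47.8, 54.6 and 61 CPM in +/+ axonal libraries. Hoxb9 stood at 85.5, 84.6, 88.6 and 79.5 CPM in Hnrnpr-/- somatodendritic and 97.6, 44, 25.6 and 36.3 CPM in Hnrnpr-/- axonal libraries. The +/+ compartments did not overlap (log2 fold change -0.86, SE 0.31, adjusted p = 0.0264). In Hnrnpr-/- motoneurons axonal replicate 1 lay above every somatodendritic library and the other 3 below, and Hoxb9 did not pass (log2 fold change -0.73, SE 0.31, adjusted p = 0.0548). With each replicate number of a genotype as a block it passed there too (log2 fold change -0.92, SE 0.28, adjusted p = 0.0178).

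In groups 3 and 4, genes of clusters C and D were lower in axons. Hoxc4 was at 3.2, 3.42, 2.73 and 4.41 CPM in +/+ somatodendritic and 1.29, 1.51, 1.69 and 1.44 CPM in +/+ axonal libraries. Hoxc4 stood at 2.96, 2.6, 2.76 and 2.49 CPM in Hnrnpr-/- somatodendritic and 1.98, 1.3, 1.98 and 1.33 CPM in Hnrnpr-/- axonal libraries. The compartments did not overlap in either genotype, and Hoxc4 decreased by 1.21 (SE 0.24, adjusted p = 0.000867) and 0.71 (SE 0.24, adjusted p = 0.0215). Hoxd3 was at 8.39, 10.7, 13.2 and 7.42 CPM in +/+ somatodendritic and 4.77, 6.68, 4.91 and 3.76 CPM in +/+ axonal libraries. Hoxd3 stood at 10.0, 12.2, 12.8 and 7.21 CPM in Hnrnpr-/- somatodendritic and 6.77, 4.01, 3.63 and 2.35 CPM in Hnrnpr-/- axonal libraries. Hoxd3, one of the 2 anterior genes above 1 RPKM, did not overlap between compartments in either genotype and had log2 fold changes of -0.98 (SE 0.31, adjusted p = 0.0154) and -1.33 (SE 0.32, adjusted p = 0.00287). Hoxd4 was at 2.17, 1.89, 1.57 and 2.02 CPM in +/+ somatodendritic and 1.16, 1.62, 0.747 and 0.306 CPM in +/+ axonal libraries. Hoxd4 stood at 1.81, 1.3, 1.68 and 1.46 CPM in Hnrnpr-/- somatodendritic and 0.552, 0.932, 0.81 and 0.961 CPM in Hnrnpr-/- axonal libraries. Hoxd4, whose row shares reads with Hoxd3 and the Mir10b gene, passed in +/+ motoneurons only narrowly (log2 fold change -0.99, SE 0.40, adjusted p = 0.0433) and not in Hnrnpr-/- ones (adjusted p = 0.0585), and the compartments overlapped in +/+ but not in Hnrnpr-/- libraries.

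Of the anterior genes of clusters A and B, Hoxa2 and Hoxb2 rose in axons, while Hoxa3, Hoxa4, Hoxb3 and Hoxb4 passed in neither genotype. Hoxa2 was at 1.57, 1.26, 1.49 and 2.44 CPM in +/+ somatodendritic and 6.27, 15.3, 12.1 and 3.4 CPM in +/+ axonal libraries. Hoxa2 stood at 1.28, 1.65, 2.64 and 1.84 CPM in Hnrnpr-/- somatodendritic and 2.44, 7.52, 14.2 and 4.87 CPM in Hnrnpr-/- axonal libraries. Hoxa2, the selector gene of the second branchial arch, rose by 2.45 in +/+ (SE 0.53, adjusted p = 0.00147) and 1.97 in Hnrnpr-/- axons on the log2 scale (SE 0.53, adjusted p = 0.00585), and overlapped between compartments only in Hnrnpr-/- libraries. Hoxb2 was at 7.97, 9.09, 9.4 and 9.15 CPM in +/+ somatodendritic and 15.2, 36.5, 32.6 and 14 CPM in +/+ axonal libraries. Hoxb2 stood at 6.5, 11.2, 9.26 and 7.21 CPM in Hnrnpr-/- somatodendritic and 14.2, 16.1, 29 and 16.2 CPM in Hnrnpr-/- axonal libraries. Hoxb2, its paralogue in cluster B, rose by 1.46 (SE 0.32, adjusted p = 0.00162) and 1.15 (SE 0.32, adjusted p = 0.00788) without overlap.

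In groups 5 to 7, Hoxc5, Hoxa5 and Hoxa7 rose in both genotypes, while Hoxa6, Hoxb5 and Hoxb6 passed in neither. Hoxc5 was at 0.694, 0.54, 1.7 and 2.02 CPM in +/+ somatodendritic and 3.92, 1.51, 6.95 and 12.3 CPM in +/+ axonal libraries. Hoxc5 stood at 1.48, 1.39, 2.43 and 1.24 CPM in Hnrnpr-/- somatodendritic and 11.9, 2.67, 9.42 and 5.4 CPM in Hnrnpr-/- axonal libraries. For Hoxc5, which acts with Hoxa5 in the phrenic motor column of the neck, log2 fold changes were 2.32 (SE 0.62, adjusted p = 0.0056) and 2.16 (SE 0.62, adjusted p = 0.00858), although +/+ axonal replicate 2 lay below the highest somatodendritic library. Hoxa5 was at 13, 11.3, 12.8 and 14.6 CPM in +/+ somatodendritic and 21, 26.8, 26.3 and 17.5 CPM in +/+ axonal libraries. Hoxa5 stood at 14, 17.8, 12.7 and 18.3 CPM in Hnrnpr-/- somatodendritic and 30.8, 28.4, 28.3 and 18.1 CPM in Hnrnpr-/- axonal libraries. Hoxa5 rose by 0.83 (SE 0.20, adjusted p = 0.00296) and 0.75 (SE 0.20, adjusted p = 0.00609), with an overlap in Hnrnpr-/- libraries alone. Hoxa7 was at 23.1, 18, 17.6 and 26.8 CPM in +/+ somatodendritic and 36.4, 47.6, 51.5 and 36.5 CPM in +/+ axonal libraries. Hoxa7 stood at 19.8, 28.7, 26 and 23.6 CPM in Hnrnpr-/- somatodendritic and 57.7, 55.8, 59.8 and 30.7 CPM in Hnrnpr-/- axonal libraries. Hoxa7 was higher in all axonal libraries than in any somatodendritic one of its genotype, by 1.01 (SE 0.22, adjusted p = 0.00165) and 1.06 (SE 0.22, adjusted p = 0.00134), and had the highest mean RPKM of cluster A in axons.

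Several calls hung on how the libraries were paired. Axonal and somatodendritic libraries with the same number deviated together within each genotype. With these pairs as a block, Hoxc6 passed in +/+ motoneurons (log2 fold change 0.56, SE 0.19, adjusted p = 0.031), where it had missed (adjusted p = 0.0656). In Hnrnpr-/- motoneurons Hoxc6 passed without a block (log2 fold change 0.67, SE 0.25, adjusted p = 0.0316). Hoxb7 lost its call in Hnrnpr-/- motoneurons, from log2 fold change -0.60, SE 0.24, adjusted p = 0.045, to log2 fold change -0.61, SE 0.24, adjusted p = 0.0583. Its values there were 37.1, 72.4, 54.4 and 52.9 CPM in the somatodendritic and 49.1, 37.1, 25.4 and 31.6 CPM in the axonal libraries, which overlapped, and in +/+ libraries 46.1, 55.8, 51.4 and 70.2 and 38.3, 46.8, 29.5 and 47 CPM. Hoxd11 and Hoxc12, whose levels differed between replicates, passed as lower in Hnrnpr-/- axons with the block (log2 fold change -1.35, SE 0.50, adjusted p = 0.0439 and log2 fold change -2.60, SE 0.57, adjusted p = 0.00535) and not without it (adjusted p = 0.497 and 0.221). With the block 15 Hox genes passed in +/+ and 16 in Hnrnpr-/- motoneurons.

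Of the 10 leading genes, Hoxc8, Hoxa9, Hoxb6 and Hoxa10 passed between compartments in neither genotype, and Hoxb7 and Hoxb9 in 1 only. The log2 fold changes of Hoxc8 were -0.13 (SE 0.31) in +/+ and -0.54 (SE 0.31) in Hnrnpr-/- motoneurons, and those of Hoxa9 were 0.58 (SE 0.41) and -0.23 (SE 0.41), with compartments that overlapped. In +/+ axons Hoxa9 was at 133 CPM in replicate 2 and at 27.2 to 43.9 CPM in the others, beside a +/+ somatodendritic mean of 40.5 CPM. Hoxb6 was at 17.2, 20.1, 12 and 25.4 CPM in +/+ somatodendritic and 18.5, 21.5, 16.2 and 20.2 CPM in +/+ axonal libraries. Hoxb6 stood at 16.2, 20.8, 16.8 and 21.1 CPM in Hnrnpr-/- somatodendritic and 26, 20.6, 16.1 and 13.5 CPM in Hnrnpr-/- axonal libraries. The log2 fold changes of Hoxb6 were 0.03 (SE 0.24) and 0.03 (SE 0.24), close to 0 in both genotypes. Hoxa10 was at 29.7, 38, 42.8 and 27.6 CPM in +/+ somatodendritic and 42.4, 36.7, 35.3 and 15.4 CPM in +/+ axonal libraries. Hoxa10 stood at 29.5, 35.7, 37.3 and 35.4 CPM in Hnrnpr-/- somatodendritic and 24.1, 34.9, 22.6 and 26.4 CPM in Hnrnpr-/- axonal libraries. For Hoxa10 they were -0.09 (SE 0.26) and -0.35 (SE 0.26).

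Of 30 non-coding rows inside the clusters 19 were tested. In +/+ axons 11 of 19 were higher and 0 lower, beside 30.1% and 27.4% of all genes, with a median log2 fold change of 1.18. In Hnrnpr-/- axons 8 were higher and 1 lower, Haglr, beside 27.5% and 26.8% of all genes, with a median of 1.03. Hoxb5os, which runs against Hoxb5 and Hoxb6, had 40, 19, 28 and 26 counts in +/+ somatodendritic and 226, 320, 332 and 175 in +/+ axonal libraries and rose by 2.86 on the log2 scale. Hotairm1, in cluster A, rose by 2.26 and Hoxb3os by 1.64. The library kit does not mark the strand, and reads were counted in the reverse-strand setting, so a gene and its antisense partner cannot be told apart in these values. Among the 39 Hox genes 15 overlap a row on the opposite strand and 11 one on the same strand. Hoxb8 overlaps neither.

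Of the proteins that bind DNA together with Hox factors, the PBX, MEIS and PKNOX families, 9 genes were tested and 6 passed in +/+ axons, where 57.5% of all genes did. Pbx4 was higher by 1.01, whereas Pknox2 (-1.78), Pbx3 (-1.59), Pbx2 (-1.36), Meis2 (-1.03) and Pknox1 (-0.96) were lower on the log2 scale. In Hnrnpr-/- axons 1 was higher and 6 lower, where 54.2% of all genes passed in either direction. By direction, 30.1% of all genes were higher and 27.4% lower in +/+ axons, and 27.5% and 26.8% in Hnrnpr-/- axons. These shares also stand beside the counts that follow. Among 25 regulators of Hox clusters, 22 were tested, since Cdx1, Cdx2 and Cdx4 did not pass the filter. In +/+ axons 4 were higher, the Polycomb genes Eed (1.8), Ezh2 (1.73) and Phc2 (1.48) and the H3K27 demethylase gene Kdm6b (1.20), and 8 were lower, among them Ezh1 (-2.0), Jarid2 (-1.48) and Suz12 (-1.02). The Hnrnpr-/- counts were 5 and 9. Of 19 genes of motor columns and pools 17 were tested. Runx1 (4.76), Nkx6-1 (2.13), Foxp1 (1.30), a cofactor of Hox proteins in limb motor columns, and Etv1 (0.92) were higher in +/+ axons, and Lhx1 (-3.06), Lhx3 (-2.94), Ret (-2.66), Lhx4 (-2.53) and Gfra1 (-2.45) lower. In Hnrnpr-/- axons 3 were higher and 5 lower. The 12 of 22 regulators and 9 of 17 motor column genes that passed in +/+ axons were close to the 57.5% of all genes, and in Hnrnpr-/- axons 14 of 22 and 8 of 17 passed, beside 54.2%.

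Whether loss of hnRNP R shifts Hox transcripts was asked within each compartment. No Hox gene passed the adjusted threshold in edgeR's test in somatodendritic or axonal libraries, where 1 (0.00501%) and 2 (0.01%) of all 19964 genes did. At an unadjusted p under 0.05, 1 of 32 Hox genes differed in somatodendritic libraries, against 0.601% of all genes, and 2 in axonal ones, against 3.88%. DESeq2 gave 0 adjusted calls and 1 and 3 unadjusted ones, the third in axons being Hoxc10 (log2 fold change -0.48 in edgeR, SE 0.23, adjusted p = 1), whose values by library stand with the compartments above and overlapped. In the test of a difference in genotype effect between compartments 0 of the 32 passed, adjusted or unadjusted, where 0% of all genes passed adjusted and 1.33% unadjusted. This does not show that the effects were alike: the difference was -1.10 (SE 0.78) for Hoxb3 and -0.81 (SE 0.58) for Hoxa9 on the log2 scale. Both rested on +/+ axonal replicate 2. Without it the axonal and somatodendritic effects were -0.22 and -0.30 for Hoxb3 and -0.21 and -0.15 for Hoxa9. Median log2 fold changes of the Hox genes, Hnrnpr-/- against +/+, were -0.02 and -0.09, beside 0.002 and 0.02 over all genes. None of the cofactors, cluster regulators, motor column genes or non-coding rows passed in either compartment, of which 1, 4, 0 and 0 had an unadjusted p under 0.05 in axons and none in somatodendritic libraries.

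**Figure D5:**
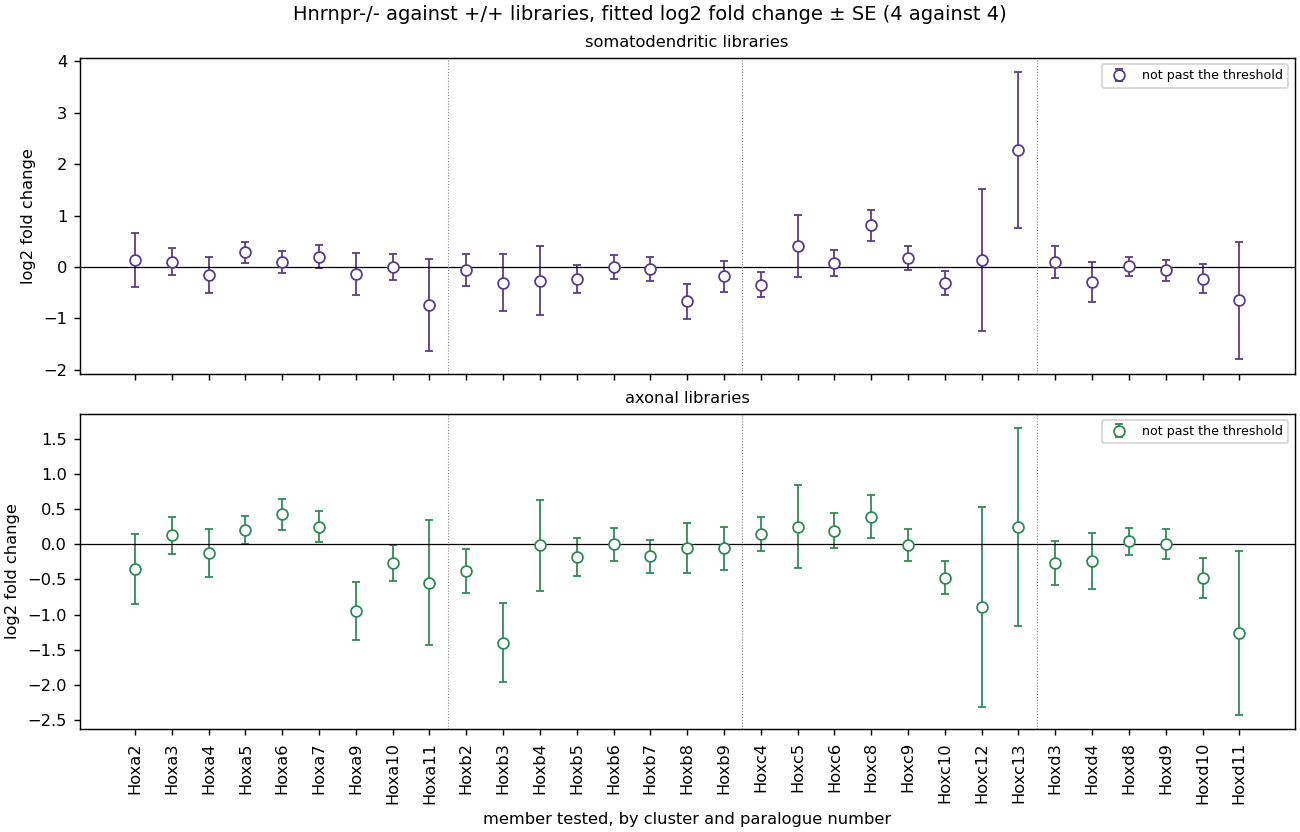
Fitted log2 fold change, Hnrnpr-/- against +/+, with its SE, for 31 of the 32 Hox genes tested in somatodendritic (upper) and axonal (lower) libraries, by cluster and number. All points are open, since none passed an adjusted p of 0.05, and Hoxc8 lies at 0.81 in the upper panel.

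Hoxc8 was the gene with the unadjusted difference in somatodendritic libraries. It was at 87, 138, 74.9 and 84.2 CPM in Hnrnpr-/- and 41.2, 44.6, 60.8 and 72.6 CPM in +/+ libraries, so that the lowest Hnrnpr-/- library lay above the highest +/+ one, which held for 1 of 32 Hox genes and 1.58% of all genes. The means were 95.9 ± 28.2 and 54.8 ± 14.6 CPM (SD, n = 4), with a log2 fold change of 0.81 (SE 0.31, adjusted p = 1). The two-sided exact permutation test of log2 CPM gave p = 0.0286, the smallest for 4 against 4, which groups without overlap give by construction. Without Hnrnpr-/- somatodendritic replicate 2, the highest, the log2 fold change was 0.60 and the unadjusted p in edgeR was no longer under 0.05, as also without +/+ somatodendritic replicate 1 (log2 fold change 0.71). In axons Hoxc8 was at 67.4, 72.1, 89 and 34.9 CPM in Hnrnpr-/- and 34.1, 76.2, 46.2 and 43.9 CPM in +/+ libraries, which overlapped, with a log2 fold change of 0.39 (SE 0.31, adjusted p = 1). Without +/+ axonal replicate 2, the highest of its group, it was 0.67, with an unadjusted p under 0.05, and without Hnrnpr-/- axonal replicate 4, the lowest of its group, it was 0.61, while without Hnrnpr-/- axonal replicate 3 it was 0.23 and without +/+ axonal replicate 1 it was 0.25. No Hox gene had axonal groups that did not overlap, as 0.606% of all genes did.

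The unadjusted differences of Hoxa9 and Hoxb3 in axons rested on 1 library. Hoxa9 was at 37.1, 133, 43.9 and 27.2 CPM in +/+ and 46.7, 33.4, 23.2 and 21.5 CPM in Hnrnpr-/- axonal libraries. Hoxb3 was at 1.02, 11.5, 2.27 and 2.39 CPM in +/+ and 1.92, 1.61, 1.92 and 1.06 CPM in Hnrnpr-/- axons. In both genes +/+ replicate 2 stood far above the other 7 libraries. The log2 fold changes were -0.95 for Hoxa9 (SE 0.41, edgeR p = 0.0346, adjusted p = 1) and -1.40 for Hoxb3 (SE 0.56, edgeR p = 0.0249, adjusted p = 1), and exact permutation tests of log2 CPM, two-sided, gave p = 0.229 and 0.343. Without that library they were -0.21 and -0.22. In somatodendritic libraries Hoxa9 was at 38.7, 37.4, 31.1 and 54.9 CPM in +/+ and 32.1, 44.9, 37.4 and 32.1 CPM in Hnrnpr-/- motoneurons, and Hoxb3 at 3.5, 3.24, 2.24 and 5.4 and 2.63, 2.9, 2.97 and 3.13 CPM, so that both genes overlapped there.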

How the data were processed

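The authors deposited expected counts, that is, read counts per gene on exons of the RefSeq annotation of GRCm39, in which a read with several alignments or overlapping genes was divided. The methods give Cutadapt, STAR 2.7.2b, featureCounts 1.6.4 in the reverse-strand setting and DESeq2 1.24.0. Total counts were 22024923 to 34864151 per library.

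Counts were rounded and fitted in R 4.3.3 with edgeR 4.0.16: genes filtered by expression per group, TMM factors, a quasi-likelihood model with 4 group means over 16 libraries, two-sided tests and Benjamini-Hochberg adjustment over 19964 genes (threshold 0.05). The SE is the log2 fold change divided by the square root of F. RPKM is TMM-scaled CPM divided by the combined exon length of all isoforms in the table, which lowers genes with long rows such as Hoxa3 and Hoxb3. No 2 libraries were identical. Exact permutation tests used log2(CPM + 0.5). The script was tested on simulated data.

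Same-numbered libraries correlated at 0.105 to 0.241 (+/+) and 0.175 to 0.508 (Hnrnpr-/-) between compartments, in deviations from group means, and each of the 4 best with its own, which pairs compartments within a genotype. Between genotypes they correlated at -0.0458 to 0.359 (somatodendritic) and 0.00946 to 0.677 (axonal), and 1 and 2 of 4 best with their own, short of the limit of 0.1 in every pair, so genotypes were not paired.

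Values in every library are given for the 10 genes highest in +/+ somatodendritic RPKM, for the 6 largest rises and falls past the threshold per compartment contrast, for unadjusted genotype differences and for the genes at the 5′ boundary of each cluster. The members and lists were chosen with earlier results of these data known. Alternatives were RLE factors, library totals, other filters, no rounding, TPM, protein-coding genes, separate fits, replicate blocks, DESeq2 1.42.0 and each library left out. Sequences came from RefSeq tables (GRCm38.p6) and GENCODE transcripts (GRCm39), which overlap the deposited rows of all 39 genes on the same strand. Protein sequences were not used here. The values of 1 Hox gene are not reported here, while the counts include it.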

Additional observations from a re-analysis of the deposited data

Results flagged for a closer look

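In groups of 4 libraries, a value was singled out when its gap to the nearest other value, as a share of the range of the group, was above the critical value of Dixon's test. Of 128 groups, 32 genes in 4 groups, 8 had such a value, and chance gives about 1 in 20. In axonal libraries, +/+ replicate 2 was at 133 CPM for Hoxa9 (4925 counts), where the others were at 27.2 to 43.9, and at 11.5 CPM for Hoxb3 (425 counts), where the others were at 1.02 to 2.39. Hnrnpr-/- axonal replicate 4 was low for Hoxa7, at 30.7 CPM against 55.8 to 59.8, and high for Hoxc12, at 3.25 CPM against 0 to 0.203. Hnrnpr-/- axonal replicate 3 was high for Hoxb2, at 29.0 CPM against 14.2 to 16.2. In somatodendritic libraries, Hnrnpr-/- replicate 4 was high for Hoxc12, at 13.6 CPM against 0 to 1.13, and for Hoxc13, at 4.63 CPM against 0 to 0.165. Hnrnpr-/- somatodendritic replicate 2 was high for Hoxb4, at 0.823 CPM, which is 19 counts, against 0.329 to 0.343. No cause was tested for any of these values.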

How the results depend on the processing

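The number of Hox genes that differed between compartments was 13 to 17 in +/+ and 12 to 17 in Hnrnpr-/- motoneurons over 11 other settings, and 12 to 15 and 11 to 16 with 1 of 16 libraries left out. No Hox gene passed for the genotype under any setting run, and with the replicate number as a block Hoxa9 (log2 fold change -0.81) and Hoxb3 (-1.05) in axons lost their unadjusted p under 0.05. Under a block by replicate number over both genotypes it was 15 and 15, and with blocks within a genotype 15 and 16, which changed no call other than Hoxc6 and Hoxc9 in +/+ and Hoxb7, Hoxb9, Hoxd11 and Hoxc12 in Hnrnpr-/- motoneurons. Of the 28 calls between compartments, 21 held under all 27 alternatives and none changed sign. With 1 library left out, Hoxd3 in +/+ motoneurons lost its call without somatodendritic replicate 3 (adjusted p = 0.0639) or axonal replicate 4 (0.0518), Hoxb9 without any of 5 +/+ libraries (somatodendritic 2 and 4, axonal 1, 2 and 3, adjusted p = 0.055 to 0.106) and Hoxd4 without any of 12 libraries (log2 fold change -1.04 to -0.65, adjusted p = 0.0507 to 0.12). In Hnrnpr-/- motoneurons Hoxc4 lost its call without somatodendritic replicate 1 or axonal 2 or 4 (0.0614 to 0.0716), Hoxc6 without somatodendritic 3 or 4 or axonal 1 or 3 (0.058 to 0.101) and Hoxb7 without any of 12 libraries (log2 fold change -0.62 to -0.39, adjusted p = 0.0528 to 0.194). The cause was not tested. The number of Hox genes at 1 or more in +/+ somatodendritic libraries was 21 to 22 in RPKM, also with 1 library left out, and 29 in TPM. The sign of the genotype effect changed under some alternative for 13 of 32 genes in each compartment. The 7 genes not tested had at most 21 counts in any library (Hoxd12 and Hoxd13 in Hnrnpr-/- axonal replicate 4). Depth limits what can be said of genes at or under 3 counts in a library.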
